A study of Sus scrofa with 48 samples.

Results

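ATF4 is the transcription factor at the end of the amino acid stress response. When an amino acid runs short or proteins misfold, kinases phosphorylate the initiation factor eIF2, most translation slows, and ATF4 messenger RNA is translated better than before. ATF4 then pairs with other bZIP factors and switches on genes that make, import and charge amino acids, so that much of its control lies in translation, which an array of messenger RNA does not measure.

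The group described here holds 9 genes: ATF4 itself, its bZIP partner and target factors CEBPB and DDIT3 (CHOP), the feedback regulator TRIB3, the glutathione-degrading enzyme CHAC1, the mTORC1 inhibitor SESN2, the serine synthesis enzymes PHGDH and PSAT1, and asparagine synthetase ASNS. Members were the probes whose gene name in the scanner files is 1 of these 9, with case ignored. There were 19 such probes among the 60305 distinct probes of the array, and they covered 7 of the 9 genes, out of 11236 genes named on the array. No probe carries the name TRIB3 or SESN2, so these genes were not analysed here. CHAC1 had 1 probe, well above background on 3 of 48 arrays, which left 18 probes of 6 genes for testing.

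The samples were perirenal adipose tissue (PRAT) of 48 growing pigs of 132 days of age by their labels, 12 in each of 4 groups. All were castrated Large White males from lines selected in opposite directions for residual feed intake (RFI), the difference between the feed a pig eats and the feed its growth should need. Low RFI pigs (efficient, labelled RFIneg) and high RFI pigs (labelled RFIpl) were fed 1 of 2 diets, 1 high in fat and fiber (HF) and 1 low in both (LF), in which starch stood in place of the oils of HF. The fiber of HF was wheat straw, added to dilute its energy. The diets had similar protein and energy, and feed was freely available. The paper reports that HF pigs ate less feed, weighed less at the end and had less perirenal fat for their weight. No group was untreated. Each array held RNA of 1 pig and was read in 1 colour.

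Values are log2 of the median spot signal minus the median of all probes of that array, so that 0 is the array median and a difference of 1 is a 2-fold change. Levels of different probes are not compared, because probes differ in brightness for the same amount of RNA. Arrays had median signals between 115 and 178 units over a median background of 23 to 33 units, no spot was saturated, and 6 slides of 8 arrays held 2 pigs of each group. Of 10 adipocyte markers 9 were measured, with a summed level between 12.5 and 12.9 (log2 over the array median) in all pigs. Of 4 kidney markers on the array, SLC12A1 was well above background on 0 arrays, CDH16 on 2 and SLC34A1 on 3, but AQP2 on all 48. The adrenal markers STAR, CYP11A1 and HSD3B1 were also above background on all 48, at a summed level of the 4 tested between 1.70 and 4.23. In whole tissue, fewer cells of a type and less RNA per cell cannot be told apart. Pigs were the replicates.

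The probe sequences below are shown because several probes of a gene do not give independent readings where they share bases. The ATF4 probes that begin at positions 806 and 817 of the transcript listed for them share the run of 50 bases in capitals, while another ATF4 probe, at position 1230, has no run of more than 8 bases in common with either.
ATF4 probe at 806: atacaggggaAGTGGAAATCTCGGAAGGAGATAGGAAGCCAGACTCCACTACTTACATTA
ATF4 probe at 817: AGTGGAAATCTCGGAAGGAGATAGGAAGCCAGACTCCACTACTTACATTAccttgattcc
ATF4 probe at 1230: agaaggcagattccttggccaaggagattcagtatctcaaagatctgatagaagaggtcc
The enzymes of serine and asparagine synthesis were read by probes such as the following, each 60 bases long and given in lower case because no part of them is compared.
PHGDH probe at 1309: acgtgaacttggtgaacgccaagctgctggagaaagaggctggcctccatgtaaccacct
PSAT1 second probe: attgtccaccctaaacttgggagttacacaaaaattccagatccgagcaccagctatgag
ASNS probe: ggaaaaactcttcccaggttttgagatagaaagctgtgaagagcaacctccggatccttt
Of the 3 DDIT3 probes 2 have the same 60 bases, so they are repeat readings of 1 sequence.

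The first comparison asked whether these genes differed between the diets, which differ in fat, fiber and starch together. The parts of these, and of the lower feed intake on HF, cannot be told apart. ATF4 and ASNS were lower and PHGDH was higher in HF than in LF pigs, while PSAT1, DDIT3 and CEBPB did not pass the test. A gene was called when its raw p was under 0.01, its fold over 1.1 and its Benjamini-Hochberg adjusted p under 0.08, in limma over all 43355 probes that were well above background on at least 24 of the 48 arrays. Where a gene had several probes, the brightest on average stood for it. By this rule 2 of 6 tested members were lower in HF, against 18.5% of the 9426 genes tested, and 1 of 6 was higher, against 6.06%. By probes, 8 of 18 were lower, against 14.5% of all probes tested, and 3 of 18 were higher, against 8.57%. Of the 8 lower probes 7 were of ATF4 and 1 of ASNS, and all 3 higher probes were of PHGDH. Probes of 1 gene are not independent readings. With so few genes, the counts of members are a description only.

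ATF4 was lower on HF in both lines. In HF low RFI pigs its level ran from 8.47 through a median of 8.74 to 9.06, and in HF high RFI pigs from 8.33 through 8.67 to 9.01. In LF low RFI pigs it ran from 8.74 through 9.14 to 9.61, and in LF high RFI pigs from 8.71 through 8.997 to 9.47. All 24 HF pigs lay below the median of the 24 LF pigs, and 13 of them lay below the lowest LF pig, so that the diets overlapped only in part. The mean level was 8.73 ± 0.21 (SD, n = 24) in HF and 9.09 ± 0.24 (SD, n = 24) in LF, a difference of -0.36 ± 0.06 (SE) on the log2 scale, or 1.28-fold lower in HF (limma, adjusted p = 4.84e-05).

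The other ATF4 probes gave the same picture. The diet difference over the 7 probes ran from -0.44 to -0.36, and all 7 were called, with adjusted p from 3.84e-05 to 0.00018. After group means were removed, the readings of these probes correlated between pigs with r from 0.777 to 0.984 over 21 probe pairs, some of which share bases as shown above. Within the 6 slides the difference lay between -0.44 and -0.25, below 0 in each.

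The order of the 4 groups for ATF4 was LF low RFI (9.14 ± 0.27, SD, n = 12), LF high RFI (9.04 ± 0.20), HF low RFI (8.76 ± 0.20) and HF high RFI (8.70 ± 0.23). The steps between lines on 1 diet were 0.10 and 0.06, smaller than the SD within any group. The step between the diets, from LF high RFI to HF low RFI, was 0.28.

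**Figure D1:**
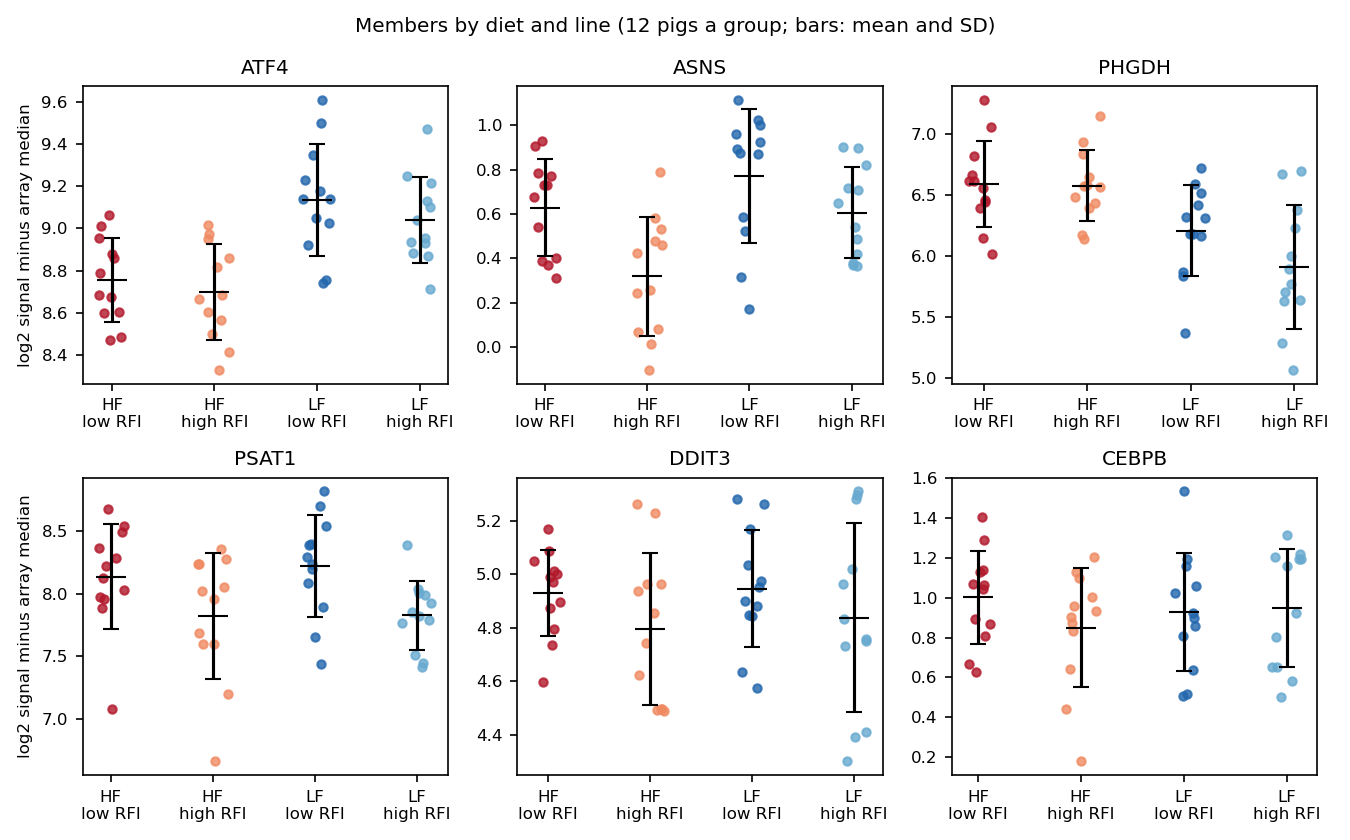
Level of the 6 tested members in each pig, as log2 signal minus the array median, by diet and line (12 pigs a group, 1 point a pig, with the mean and SD as bars; each panel has its own axis). ATF4 in HF pigs sits between 8.33 and 9.06 and in LF pigs between 8.71 and 9.61, PHGDH is higher in HF, and the PSAT1 mean is higher in low RFI pigs on both diets, at a probe that missed the call for line.

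ASNS, which makes asparagine from aspartate and is a textbook target of ATF4, was also lower in HF, by less. Its level ran from 0.31 through a median of 0.70 to 0.93 in HF low RFI pigs and from -0.10 through 0.34 to 0.79 in HF high RFI pigs. It ran from 0.17 through 0.88 to 1.12 in LF low RFI pigs and from 0.37 through 0.60 to 0.90 in LF high RFI pigs. The groups overlapped widely: 17 of 24 HF pigs lay below the LF median and 4 lay below the lowest LF pig. The mean fell from 0.69 ± 0.27 (SD, n = 24) in LF to 0.47 ± 0.29 (SD, n = 24) in HF, a difference of -0.21 ± 0.07 (SE), or 1.16-fold (limma, adjusted p = 0.0200). The call rests on 1 probe. It was lost when arrays were centred on the 75th percentile of the background-subtracted signal (-0.21, limma, adjusted p = 0.0496, raw p above 0.01), and slide 6 alone gave a difference of 0.01 where the others gave -0.48 to -0.10.

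PHGDH, the first enzyme of serine synthesis from a glycolytic intermediate, moved the other way. Its level ran from 6.02 through a median of 6.59 to 7.29 in HF low RFI pigs and from 6.14 through 6.57 to 7.15 in HF high RFI pigs. It ran from 5.37 through 6.25 to 6.73 in LF low RFI pigs and from 5.07 through 5.83 to 6.70 in LF high RFI pigs. The HF pigs lay above the LF median in 21 of 24 cases and above the highest LF pig in 6. The mean was 6.58 ± 0.32 (SD, n = 24) in HF and 6.06 ± 0.46 (SD, n = 24) in LF, a difference of 0.52 ± 0.11 (SE), or 1.44-fold higher in HF (limma, adjusted p = 0.000354). All 3 probes were called, with differences from 0.39 to 0.53. The difference was above 0 within each of the 6 slides, from 0.01 on slide 1 to 0.86 on slide 5.

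PSAT1, the next enzyme of the serine pathway after PHGDH, was not called for diet. Its 2 probes differed between diets by -0.05 ± 0.11 (SE, limma, adjusted p = 0.796) and -0.01 ± 0.11 (SE, limma, adjusted p = 0.978), and the 95% interval of the first, -0.28 to 0.19, reaches neither the size seen for PHGDH nor its lower bound of 0.30. DDIT3, the stress factor CHOP that ATF4 switches on, differed by -0.03 ± 0.07 (SE, limma, adjusted p = 0.805), with a 95% interval of -0.18 to 0.12. CEBPB, which encodes the partner factor C/EBP-beta, differed by -0.01 ± 0.08 (SE, limma, adjusted p = 0.917), with a 95% interval of -0.17 to 0.15. The other probes of DDIT3 and CEBPB gave differences between -0.08 and -0.004, none called. CHAC1 was not well above background on 45 of 48 arrays, so no difference is given for it.

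**Figure D2:**
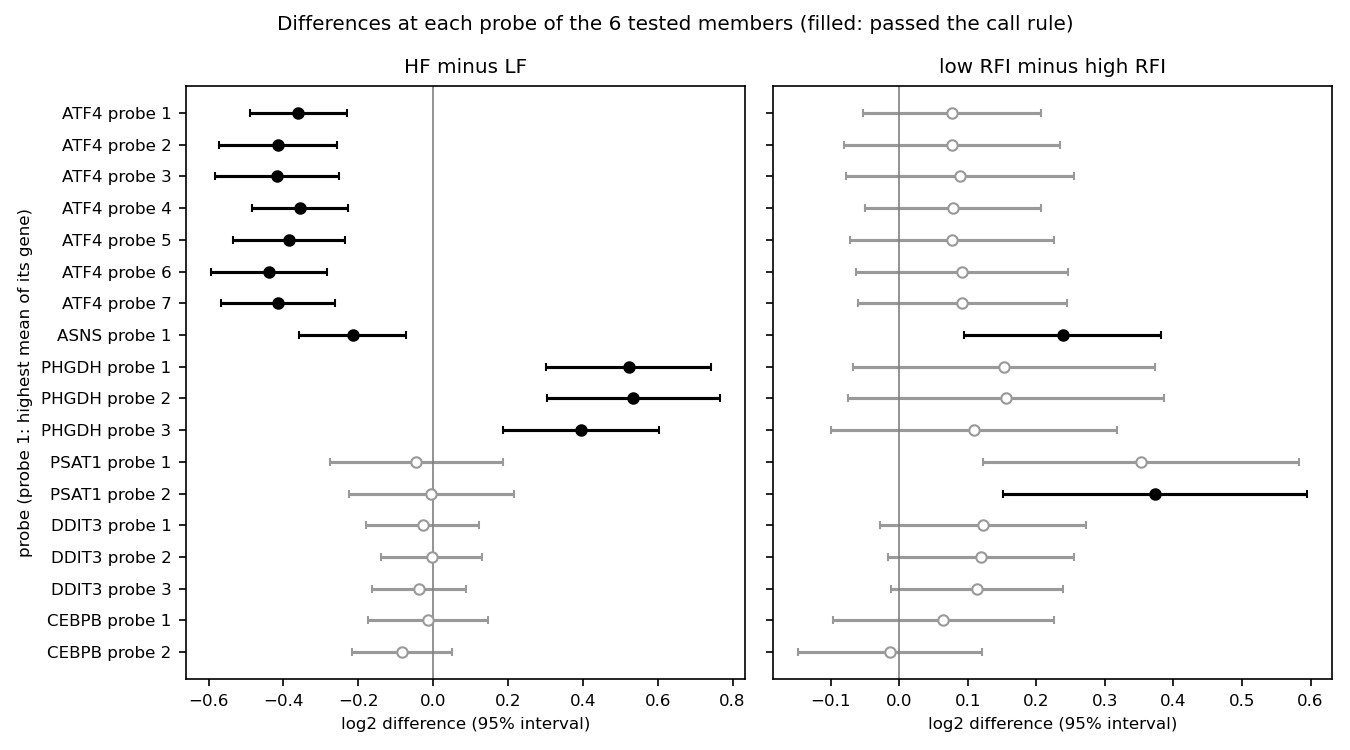
Diet difference (left, HF minus LF) and line difference (right, low minus high RFI) at each of the 18 tested probes of the 6 members, on the log2 scale with 95% intervals from limma (the horizontal scales differ); filled points passed the call rule. The 7 ATF4 probes lie between -0.44 and -0.36 for diet, the 3 PHGDH probes between 0.39 and 0.53, and of the 2 PSAT1 probes 1 was called for line.

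How the arrays were scaled bears on these differences. With centring on the E1A spike-in probes, control RNA added in a fixed amount, the median diet difference of all 9426 genes moved from -0.05 to 0.10, a shift of 0.15, and the share of called genes that were higher in HF was 90.3% instead of 24.7%. That share was 41.9% under quantile normalization, 42.4% under normexp with quantile normalization and 36.8% under the 75th percentile. On the spike-in scale ATF4 was at -0.21 (limma, adjusted p = 0.0457, raw p above 0.01) and ASNS at -0.07 (limma, adjusted p = 0.564), neither called, and PHGDH at 0.67 (limma, adjusted p = 3.87e-05), called. ATF4 and ASNS kept their sign, and PHGDH its sign and call, under all 6 scalings in the plot of differences by scaling. DDIT3, PSAT1 and CEBPB changed sign between scalings.

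**Figure D3:**
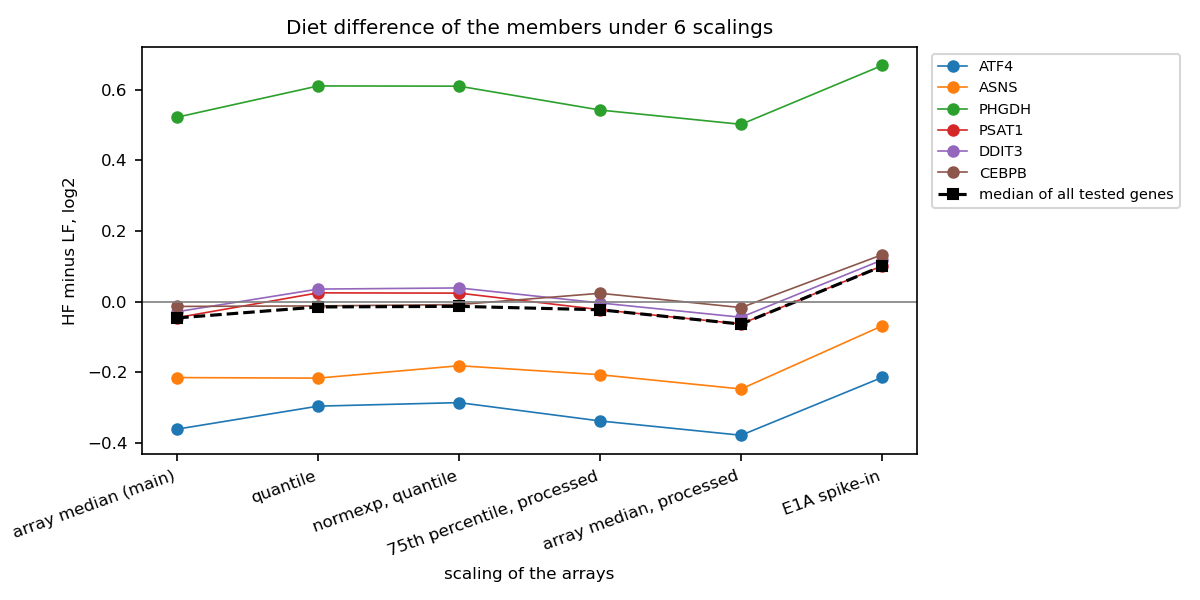
Diet difference (HF minus LF, log2) of the 6 tested members under 6 ways of scaling the arrays, with the median of all 9426 tested genes as squares on a dashed line. The spike-in scale lifts all values, including the median (from -0.05 to 0.10); PHGDH stays highest and ATF4 lowest of the 6 under each scaling.

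Markers of another cell type moved with diet. Of 10 macrophage markers, all measured, 9 were higher in HF, against 6.06% of all genes tested. The summed level of the 10 ran from 6.14 through a median of 7.66 to 8.80 in HF and from 5.96 through 6.95 to 8.48 in LF. The marker not called was CD68, at 0.09 (limma, adjusted p = 0.222). Of 9 adipocyte markers measured (median -0.14), 2 were lower in HF, against 18.5% of all genes tested. These were LEP at -0.94 (limma, adjusted p = 5.88e-06) and CIDEC at -0.24 (limma, adjusted p = 0.00843). Of 8 T and NK cell markers tested, 2 were higher, against 6.06% of all genes tested. These were CD3G at 0.34 (limma, adjusted p = 0.00844) and NKG7 at 0.31 (limma, adjusted p = 0.0129). Of 2 brown fat markers tested (median -0.29) CIDEA was lower in HF, at -0.42 (limma, adjusted p = 0.00121), and PPARGC1A was not called. The share of all genes tested was 18.5%, and UCP1 and COX8B were not found by name on the array. The summed level of CIDEA and PPARGC1A had a median of 7.45 in HF and 7.92 in LF, a sum in which the brighter probe weighs most. Of 3 red cell markers tested (median -0.02) SLC4A1 was lower, at -0.36 (limma, adjusted p = 0.000116), against 18.5% of all genes tested. HBB and ALAS2 were not called. Of the endothelial, fibroblast, muscle, adrenal and mesothelial markers tested 0 were called. With the summed macrophage level as a covariate, ATF4 was at -0.26 (limma, adjusted p = 0.00295) and PHGDH at 0.66 (limma, adjusted p = 6.53e-05), both still called, while ASNS at -0.18 (limma, adjusted p = 0.0991) was not. This covariate was chosen after seeing the data and itself differed between the diets. The parts of diet and of macrophage level therefore cannot be told apart by this fit. The collecting duct gene AQP2, 1 of 6 kidney markers and the only 1 tested, was lower in HF at -0.63 (limma, adjusted p = 0.000293). The part of the brown fat, red cell, adipocyte, T and NK cell and kidney markers in these results was not tested.

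The second comparison asked whether the lines differed. ASNS was higher in low RFI than in high RFI pigs, and 1 of the 2 probes of PSAT1 was too. By genes, 1 of 6 tested members was called higher in low RFI, against 1.75% of genes tested, and by probes 2 of 18, against 1.71%. No member was called lower in low RFI.

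ASNS had a mean of 0.70 ± 0.27 (SD, n = 24) for low RFI and 0.46 ± 0.28 (SD, n = 24) for high RFI pigs, a difference of 0.24 ± 0.07 (SE), or 1.18-fold (limma, adjusted p = 0.0571). In 18 of 24 low RFI pigs it lay above the high RFI median, 11 of 12 on HF and 8 of 12 on LF against their own diet's median. The groups stood in the order LF low RFI (0.77 ± 0.30, SD, n = 12), HF low RFI (0.63 ± 0.22), LF high RFI (0.61 ± 0.21) and HF high RFI (0.32 ± 0.27), with the middle pair 0.02 apart. The call was lost with spike-in centring (0.25, limma, adjusted p = 0.271).

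PSAT1 ran from 7.08 through a median of 8.17 to 8.67 in HF low RFI pigs and from 6.66 through 7.99 to 8.35 in HF high RFI pigs. It ran from 7.44 through 8.27 to 8.82 in LF low RFI pigs and from 7.41 through 7.84 to 8.39 in LF high RFI pigs. The low RFI pigs lay above the high RFI median in 21 of 24 cases and above the highest high RFI pig in 8. The mean was 8.18 ± 0.40 (SD, n = 24) for low RFI and 7.83 ± 0.40 (SD, n = 24) for high RFI pigs, a difference of 0.35 ± 0.11 (SE), or 1.28-fold, which narrowly missed the call (limma, adjusted p = 0.0932). The second probe, whose sequence is printed above, differed by 0.37 ± 0.11 (SE) and passed (limma, adjusted p = 0.0520). The size hardly changed between the settings tried, from 0.34 to 0.38, and the call depended on which was used.

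The remaining members did not pass for line. ATF4 was at 0.08 ± 0.06 (SE, limma, adjusted p = 0.714), with its 7 probes between 0.08 and 0.09. PHGDH was at 0.15 ± 0.11 (SE, limma, adjusted p = 0.639), DDIT3 at 0.12 ± 0.07 (SE, limma, adjusted p = 0.545) and CEBPB at 0.06 ± 0.08 (SE, limma, adjusted p = 0.831). For DDIT3, 20 of 24 low RFI pigs lay above the high RFI median at the brightest probe, and 18 and 17 of 24 at the probes that have the same bases. The 95% interval of the difference at the brightest probe was -0.03 to 0.27.

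The third comparison asked whether diet acted alike in the lines. No gene was called for the diet by line interaction (limma, 0.0% of genes tested, with 198 of 9426 genes at an unadjusted p under 0.05), and the lowest adjusted p of any gene was 0.9999. For ATF4 the diets differed by -0.38 ± 0.09 (SE) among low RFI pigs and by -0.34 ± 0.09 (SE) among high RFI pigs, both called, against 9.95% and 12.9% of genes called lower. The interaction for ATF4 was -0.04, with a 95% interval of -0.30 to 0.22.

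PHGDH rose by 0.66 ± 0.15 (SE) on HF among high RFI pigs (limma, adjusted p = 0.00414), and the LF median was exceeded by 12 of 12 pigs on HF. Among low RFI pigs the difference was 0.38 ± 0.15 (SE), not called (limma, adjusted p = 0.106), and 10 of 12 exceeded the LF median. Under quantile normalization it was 0.46 and called (limma, adjusted p = 0.0402). The genes called higher on HF made up 2.49% of those tested in the high RFI line and 3.32% in the low RFI line. ASNS differed by -0.29 ± 0.10 (SE) in the high RFI line, called (limma, adjusted p = 0.0541), and by -0.14 ± 0.10 (SE) in the low RFI line, not called (limma, adjusted p = 0.379). These are not shown to differ between lines: the interaction was -0.28 for PHGDH, with a 95% interval of -0.72 to 0.16, and 0.14 for ASNS, with a 95% interval of -0.14 to 0.43.

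Pig to pig within the groups, ATF4 correlated with CEBPB past the adjusted threshold, while the other 4 tested members did not pass; whether the correlations differ from each other was not tested. Correlations were taken over 48 pigs after each group's mean was removed, with two-sided permutation within groups (100000 resamples) and Benjamini-Hochberg adjustment over the 9425 genes set against ATF4. CEBPB had r = 0.435 (permutation p = 0.00305, adjusted p = 0.0236) and rho = 0.448 (permutation p = 0.00206, adjusted p = 0.0198). Without the 2 pigs farthest from the ATF4 median r was 0.423, and with slide means removed it was 0.415. It was 0.352 under quantile normalization and 0.490 under the 75th percentile, with no test. Within single slides it lay between -0.945 and 0.955, above 0 in 5 of 6. A slide holds 2 pigs of each group, so a within-slide r rests on few values. These values are from 1 of the 2 CEBPB probes, whose readings correlated with r = 0.676. Positive correlations with ATF4 that passed an adjusted p of 0.05 were common, at 13.9% of genes, so that 1 of 5 members is a description.

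PSAT1 had r = 0.235 (permutation p = 0.125, adjusted p = 0.291) and rho = 0.222 (permutation p = 0.145, adjusted p = 0.327). ASNS had r = 0.230 (permutation p = 0.141, adjusted p = 0.317) and rho = 0.238 (permutation p = 0.119, adjusted p = 0.287). For ASNS r was 0.429 with slide means removed, close to the 0.415 of CEBPB. It was above 0 in all 6 slides, between 0.0693 and 0.796, but each slide gave only 2 pigs of each group. DDIT3 had r = 0.102 (permutation p = 0.496, adjusted p = 0.687) and rho = 0.125 (permutation p = 0.409, adjusted p = 0.618). PHGDH had r = 0.0621 (permutation p = 0.679, adjusted p = 0.816) and rho = 0.128 (permutation p = 0.392, adjusted p = 0.603). Without the 2 farthest pigs these 4 values of r were between 0.0618 and 0.135, and within single slides the values of r for CEBPB, PSAT1, DDIT3 and PHGDH ran from below 0 to above 0. Under quantile normalization r was 0.0867 for PSAT1, 0.141 for ASNS, -0.0350 for DDIT3 and -0.138 for PHGDH.

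Among the other members the serine enzymes went together most closely, as a description with no test. PHGDH and PSAT1 had r = 0.565 (rho = 0.550), and each was the closest member to the other, over the same 48 pigs. DDIT3 was closest to PHGDH (r = 0.480, rho = 0.437), ASNS to PSAT1 (r = 0.440, rho = 0.385), and CEBPB to ATF4.

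**Figure D4:**
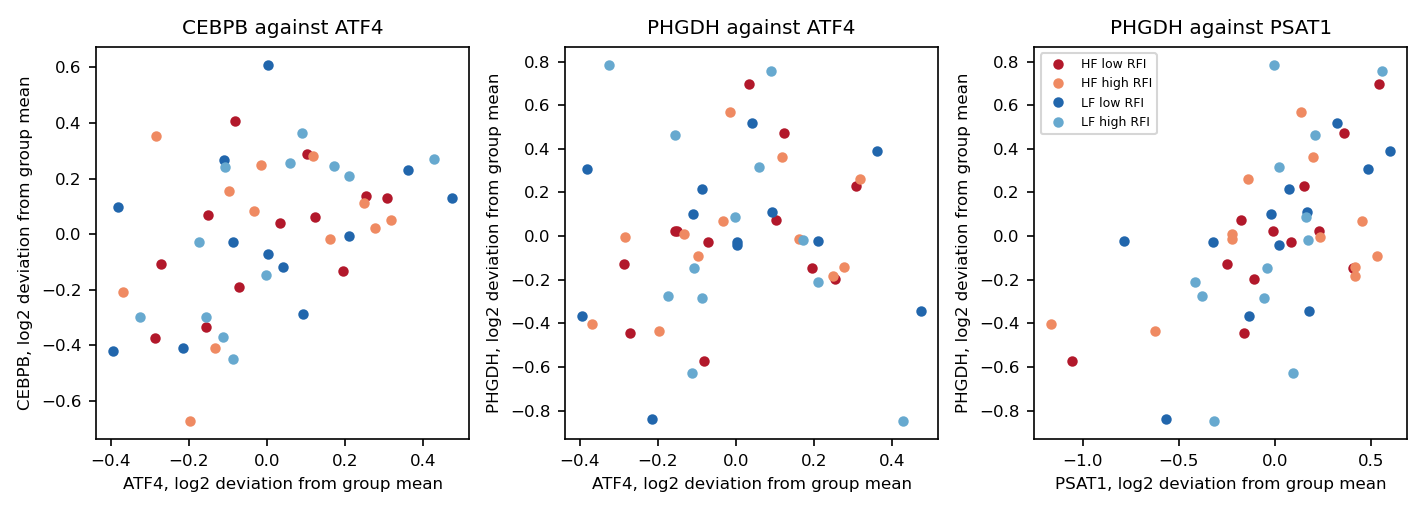
Deviation of each of the 48 pigs from its group mean (log2) for CEBPB against ATF4, PHGDH against ATF4 and PHGDH against PSAT1, coloured by diet and line. The points rise together in the first panel (r = 0.435) and the third (r = 0.565), and show no clear trend in the second (r = 0.0621).

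The genes whose pig-to-pig pattern was most like that of ATF4 were not members. The 5 with the highest r over 48 pigs were PTRH2 (r = 0.841, rho = 0.851), a peptidyl-tRNA hydrolase of mitochondria, NUP50 (r = 0.827, rho = 0.806), a nuclear pore protein, NOP2 (r = 0.819, rho = 0.816), a ribosomal RNA methyltransferase, YTHDF1 (r = 0.811, rho = 0.792), a reader of methylated messenger RNA, and LRRC59 (r = 0.808, rho = 0.800), a membrane protein of the endoplasmic reticulum. Each had a permutation p of 1e-05 for both r and rho, the smallest these resamples can give (adjusted p = 0.000529 and 0.000608). Their r stayed above 0 within all 6 slides, a weak check with 2 pigs of each group in a slide. Without the 2 farthest pigs these 5 values of r were between 0.771 and 0.821.

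Further genes of the pathway, 137 in 7 lists that overlap in part, were read in the same fit. Of the 106 tested, 15 (14.2%) were lower and 5 (4.72%) were higher in HF, close to the 18.5% and 6.06% of all genes tested, and their median difference was -0.06 against -0.05 for all genes. Summed list by list, so that a gene in several lists can count in each, the split was 7 lower and 9 higher under quantile normalization. Under spike-in centring it was 2 lower and 12 higher. The counts of single lists below stand beside the same 18.5% and 6.06%, as a description.

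Upstream of ATF4, of 13 tested eIF2 kinases and regulators 2 were lower and 0 higher in HF (median -0.07). EIF2S1, the eIF2 subunit that the kinases phosphorylate, fell by 0.20 (limma, adjusted p = 0.00177), with 23 of 24 HF pigs below the LF median, and PPP1R15B, which guides the phosphatase that reverses this, fell by 0.15 (limma, adjusted p = 0.0213) at 1 of its 2 probes. Of 16 tested partner and related bZIP factors 2 were higher and 1 was lower (median -0.01). FOS, an immediate early gene, rose by 0.89 ± 0.26 (SE, limma, adjusted p = 0.00786) with all 5 of its probes called, and JUN, its partner in AP-1, rose by 0.35 ± 0.11 (SE, limma, adjusted p = 0.00997). CEBPA, a driver of fat cell differentiation, fell by 0.21 (limma, adjusted p = 0.0336), with 1 of its 2 probes called and both at -0.21.

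Downstream, of 18 tested genes listed as stress targets of ATF4, 2 were higher and 2 were lower (median -0.06). The list was fixed by name, and control of its genes by ATF4 was not tested. CDKN1A, the cell cycle inhibitor p21 and also a p53 target, fell by 0.64 ± 0.11 (SE, limma, adjusted p = 1.92e-05), with 23 of 24 HF pigs below the LF median. All 4 of its probes were called, with differences from -0.64 to -0.25. SESN1, in this list but only a relative of the member SESN2, fell by 0.23 (limma, adjusted p = 0.0210). VEGFA, an angiogenic growth factor, rose by 0.26 (limma, adjusted p = 0.0216) at 1 of its 4 probes, and HERPUD1, which serves protein degradation at the endoplasmic reticulum, rose by 0.31 (limma, adjusted p = 0.0252) at 1 of its 2 probes.

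Of 16 tested genes of amino acid synthesis 3 were lower and 1 was higher (median -0.04). GOT1, the cytosolic aspartate aminotransferase, fell by 0.49 ± 0.08 (SE, limma, adjusted p = 3.24e-05), with 24 of 24 HF pigs below the LF median and all 5 of its probes called. GOT2, its mitochondrial counterpart, fell by 0.31 ± 0.07 (SE, limma, adjusted p = 0.00174), with all 3 of its probes called. CTH, which makes cysteine, fell by 0.39 ± 0.11 (SE, limma, adjusted p = 0.00656), and GLUL, glutamine synthetase, rose by 0.35 ± 0.11 (SE, limma, adjusted p = 0.0187) with 4 of its 7 probes called.

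Of 20 tested aminoacyl-tRNA synthetases, the enzymes that charge tRNA with amino acids, 5 were lower and 0 were higher (median -0.11). These stand against 18.5% lower and 6.06% higher of all genes tested. Spike-in centring shifted the median of all genes by 0.15, more than the size of this list median. HARS fell by 0.24 ± 0.05 (SE, limma, adjusted p = 0.000145), TARS by 0.23 ± 0.05 (SE, limma, adjusted p = 0.00042) and SARS by 0.19 ± 0.05 (SE, limma, adjusted p = 0.00356), the last with all 5 of its probes called. Of 11 tested amino acid transporters 1 was lower and 0 higher (median -0.01): SLC38A1, a glutamine carrier, fell by 0.23 (limma, adjusted p = 0.00194). That call rests on 1 probe of low signal, with means of -1.15 in HF and -0.92 in LF, below the array median. Of 15 tested ER folding genes 1 was lower and 0 higher (median -0.06): the chaperone calnexin, CANX, fell by 0.21 (limma, adjusted p = 0.0165) at 2 of its 3 probes.

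By line, 1 of the 106 genes was called lower in low RFI pigs, against 1.37% of all genes tested, and 0 were called higher. This was SLC7A7, a carrier of basic amino acids, at -0.51 ± 0.14 (SE, limma, adjusted p = 0.0318), with means of 3.85 for low and 4.36 for high RFI pigs, all 4 of its probes called, and 20 of 24 low RFI pigs below the high RFI median.

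**Figure D5:**
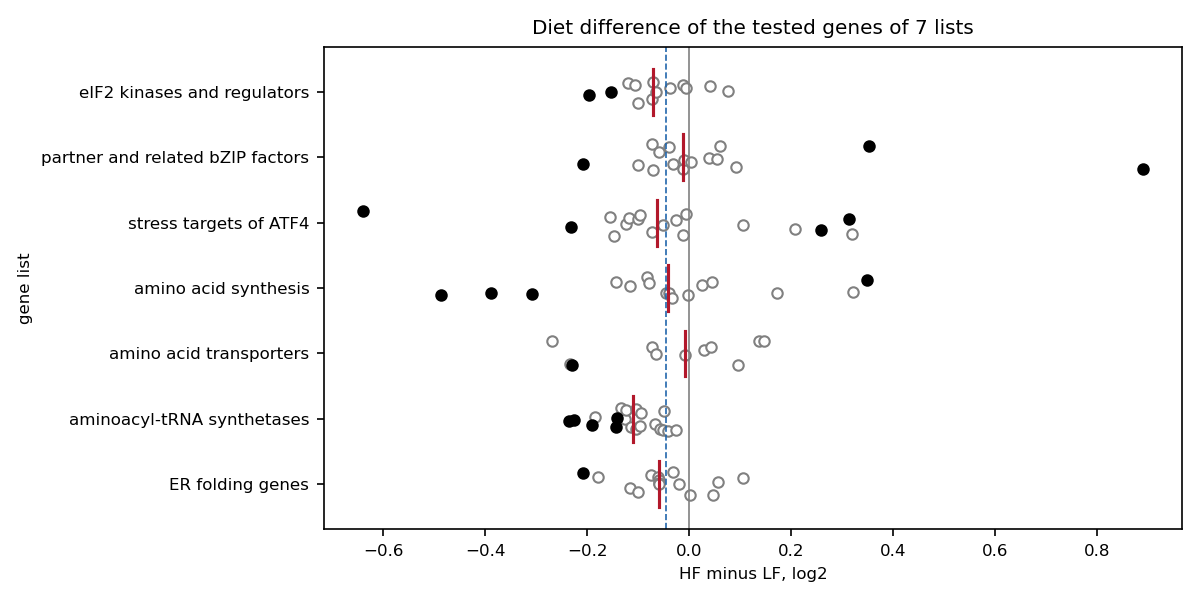
Diet difference (HF minus LF, log2) of each tested gene in 7 lists around ATF4; filled points passed the call rule, red bars are list medians and the dashed blue line is the median of all 9426 genes (-0.05). The synthetases have a median of -0.11 and no called gene above 0, which also holds for the eIF2, transporter and ER folding lists. Among all 7 lists FOS at 0.89 and CDKN1A at -0.64 lie farthest out.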

How the data were processed

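One-colour arrays of PRAT from 48 pigs were used. Spot intensity values were made by the authors' scanner software and deposited per array, without normalization between arrays. Per the labels and methods, the authors then filtered spots, took log2 and centred each array on its median; these deposited log2 values (38142 rows) were matched to spots by value, since only 2 row names were those of the matched spot, and served as an alternative. The submitters' processing notes name R 2.10.0; the genome build is not given in the sources used here.

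Here log2 of the median intensity was centred on each array's median over all non-control probes, and the spots of 1 probe were averaged. Diet, line and interaction (sum-to-zero coding) were fitted with limma 3.58.1 in R 4.3.3; correlations used Python 3.11.15. Code was tested on simulated data. The call rule is the methods' own, which used a two-way ANOVA. Named genes were all members, in each list the 3 genes with the lowest raw p among those called higher and among those called lower for diet, all genes called for line, and the 5 closest to ATF4. Of 60305 probes, 22750 had a gene name, 911 of them through a RefSeq accession. Members, lists and rules were chosen with earlier results of these data known. The promoter motif search was not run.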

Additional observations from a re-analysis of the deposited data

How the results depend on the processing

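Of 6 tested members, 3 were called for diet. This count was 1 with E1A spike-in centring and 0 with a fold over 1.5, and lay within 1.5 times of 3 under the other alternatives. For line, 1 was called in the main setting, 2 under quantile normalization, normexp with quantile normalization, array weights, the mean over a gene's probes, the probe with the lowest variance and the macrophage covariate (chosen after seeing the data), and 0 with spike-in centring, an adjusted p under 0.05 alone or a fold over 1.5. Within low RFI pigs the diet count went from 1 to 2 under quantile normalization, with PHGDH added at 0.46 (limma, adjusted p = 0.0402). Pathway genes were counted list by list here, so that a gene in several lists can count in each. Those lower in HF (15) were 7 under both quantile settings, 2 with spike-in centring and 1 with a fold over 1.5, and those higher (5) were 9, 12 and 1, and 8 under the 75th percentile. Those lower by line (1) were 2 under both quantile settings and 0 with a fold over 1.5. The cause was not tested.

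The replicate numbers were not taken as pairs, since only 38 of 72 same-numbered pairs of different groups had r over 0.1 (lowest -0.291). Same-numbered pigs were still somewhat more alike: their median r was 0.121, against 0.0625 for another number on the same slide and -0.0113 for other numbers, and 16 of 48 pigs matched best with their own number, a hint from the data and not from the design. With a replicate block, 3 members were called for diet and 2 for line (PSAT1 added, limma, adjusted p = 0.0513). Counted list by list, 2 pathway genes were lower and 2 higher by line.

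Signs turned for members whose differences passed no test in either setting. For diet, DDIT3 was at 0.0358 under quantile normalization, 0.0390 under normexp, 0.12 with spike-ins and 0.0494 with the macrophage covariate, PSAT1 at 0.0251, 0.0244, 0.10 and 0.10 in that order, and CEBPB at 0.0239 under the 75th percentile, 0.13 with spike-ins and 0.10 with the covariate. Under quantile normalization the diet difference of DDIT3 was 0.0408 for the low and 0.0308 for the high RFI line, and that of PSAT1 was 0.0678 for the high RFI line. For line, CEBPB was at -0.0129 at its less variable probe. For the interaction, DDIT3 was at -0.0218 under the 75th percentile, -0.0251 under the median-centred processed signal and -0.00146 under normexp, PSAT1 at 0.0245 and ATF4 at 0.0686 with spike-ins, and ATF4 at 0.000212 for the mean of its probes and 0.00296 for the least variable. ASNS, called for diet, was at 0.00695 within slide 6, with no test. The number of arrays and signal over background limit precision, most for CHAC1.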

Other observations

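A further probe, named in the files only by a sequence number and so not a member by the rule, shares a run of 56 bases with the brightest ATF4 probe. Its mean level was 9.11 in HF and 9.46 in LF pigs, a difference of -0.36 on the log2 scale, and after group means were removed its level correlated with that of the ATF4 probe with r = 0.976 over 48 pigs.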
